A study of Mus musculus with 35 samples.

Results

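Imprinted genes are transcribed mainly from the copy inherited from 1 parent. Methylation laid down in the egg or the sperm marks a control region near each cluster of such genes, and it is kept in the body's cells so that the maternal and the paternal copy stay unlike. Many of these genes act in growth, metabolism and the brain. In an F1 hybrid the parental copies come from different lines, so an imprinted gene is read largely from 1 line's allele, whereas in an inbred strain the alleles of both parents are the same. By the naming convention of B6D2F1 hybrids the dam is C57BL/6 and the sire DBA/2, so that paternally expressed genes are read from the DBA/2 copy and maternally expressed genes from the C57BL/6 copy.

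A set of 47 known imprinted genes, listed by symbol with earlier results of these data known, was followed among the 52636 genes counted. By background knowledge 26 of them were classed as paternally expressed, 13 as maternally expressed and 8 as mixed. Mixed members are biallelic in some tissues, or imprinted from opposite copies in different isoforms or tissues. The paternal and maternal classes can also hold genes imprinted in only some tissues, such as Ube3a, which is maternally expressed in neurons. Cells of the basolateral amygdala, a brain area for emotional learning, were cut from sections with a laser, separately from its anterior and its posterior portion. The mice were females of the inbred strain C57BL/6J and of the hybrid B6D2F1N, kept in standard cages or given a playground for 1 h per day from postnatal day 77 (enriched). All mice had been bought at weaning age, kept on restricted food and trained from postnatal day 70 in a touchscreen test of cognitive bias, for 37 to 90 days. The anterior groups held 4 standard and 2 enriched C57BL/6J mice and 5 standard and 5 enriched B6D2F1N mice. The posterior groups held 4 standard and 4 enriched C57BL/6J mice and 5 standard and 6 enriched B6D2F1N mice. In all, 35 libraries came from 19 mice, 16 of which gave both portions, and mice are numbered within strain and housing. Counts do not tell the parental alleles apart, so only the summed level of both copies was measured.

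The libraries held between 16938534 and 27352623 counts assigned to genes. Levels are given as CPM, counts divided by library size and scaled by edgeR's TMM factors. B6D2F1N standard mouse 1 had 0 counts of Xist, the RNA of the inactive X chromosome, in both of its libraries, although the labels give females only, and the other libraries had at least 54.4 CPM. Results are therefore also given without this mouse. Neuron and glia markers were present in every library, with summed levels of 1068 to 5398 CPM for 6 excitatory neuron genes and 2323 to 31159 CPM for 6 oligodendrocyte genes. The sum of 6 choroid plexus genes ran from 5.78 to 26.4 CPM in C57BL/6J anterior and from 118 to 1472 CPM in C57BL/6J posterior libraries. In B6D2F1N mice it ran from 6.51 to 934 CPM in anterior libraries, against 347 to 14266 CPM in posterior ones.

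The imprinted genes covered a wide range of levels in these cells. Per kilobase of exon, the unit in which genes can be compared, Snrpn, a splicing protein gene of the Prader-Willi/Angelman cluster, was highest with a mean of 439 CPM per kb over 35 libraries. The 9 next were Nnat (259), which encodes a small membrane protein of brain and endocrine cells, Meg3 (218), a maternally expressed noncoding RNA, Nap1l5 (207), Blcap (75.2), Impact (74.8), Ndn (71.2), Rasgrf1 (40.8), Inpp5f (32.9) and Peg3 (19.9), a zinc-finger gene. At the other end, Snurf had 0 counts in 35 libraries, H19 had 1 count and Phlda2 had 7 counts in all, and these 3 were not tested. The exons of Snurf, which is read in 1 transcript with Snrpn, lie wholly within annotated exons of Snrpn or Gm38393, so a read there has no single gene to be assigned to. Each of the 44 other members was tested in every comparison. Gnas, which encodes a G protein subunit, had only 9.31 CPM, and 22% of its exon length is overlapped by genes on the opposite strand.

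**Figure D1:**
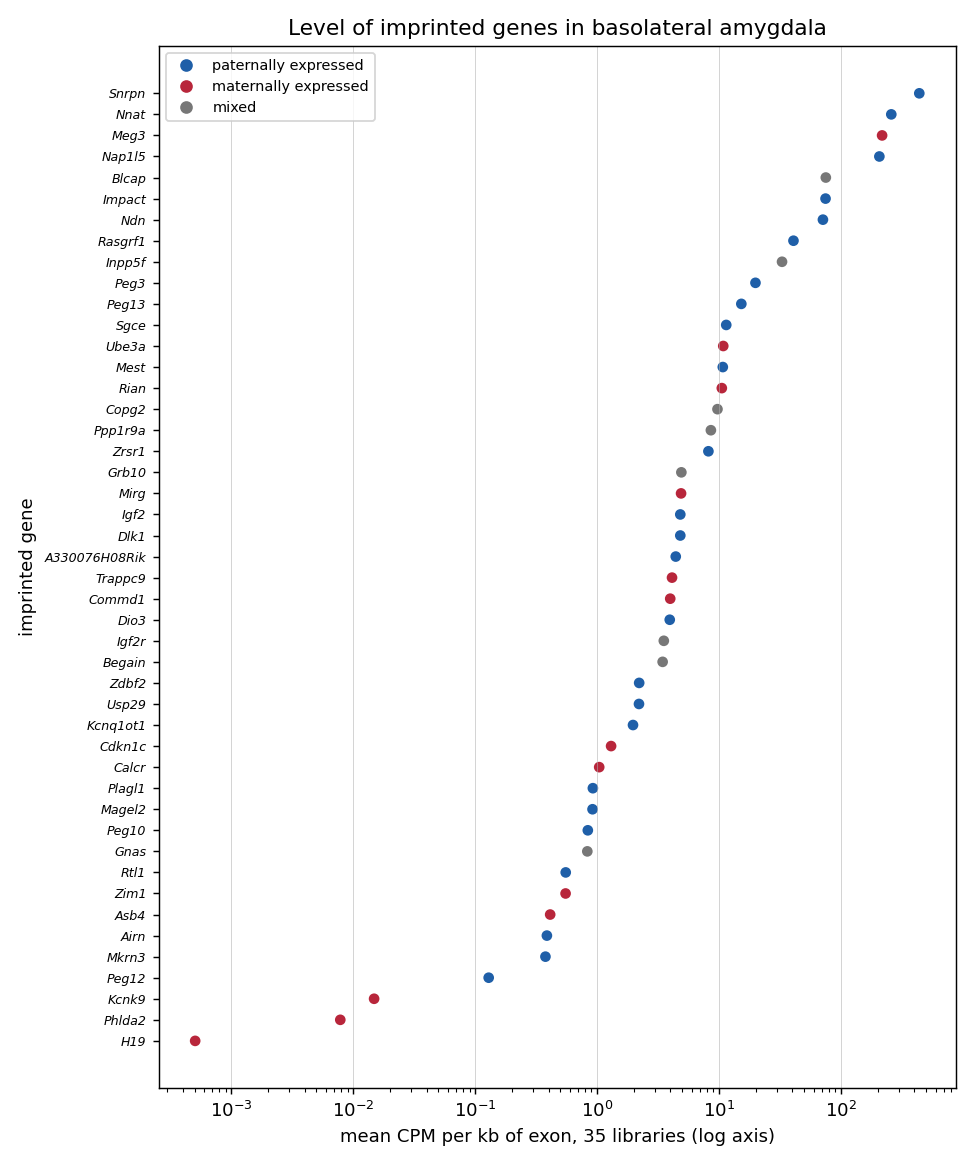
Mean level of 46 imprinted genes over 35 libraries, in CPM per kb of exon on a log axis, coloured by the parental copy known to be expressed; Snurf, at 0 counts, is not drawn. Snrpn, Nnat, Meg3 and Nap1l5 lie above 200 CPM per kb, and H19 and Phlda2 are at the bottom.

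The spread between libraries also differed among members. Of the 41 members with a mean of at least 1 CPM, Inpp5f and Impact varied least, with coefficients of variation of 16.2% and 16.4% over the 35 libraries. Calcr (210%), Igf2 (156%), Asb4 (145%), Dio3 (118%) and Dlk1 (91.2%) varied most. Among these, Igf2 and Dlk1 encode growth regulators, Dio3 encodes an enzyme that inactivates thyroid hormone, and Calcr encodes the calcitonin receptor.

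The first comparison asked which imprinted genes differed between the hybrid and the inbred strain. A330076H08Rik, a noncoding RNA of the Prader-Willi/Angelman cluster, was several times lower in B6D2F1N than in C57BL/6J mice in both portions. Ndn, which encodes the neuronal growth suppressor necdin, Zrsr1, which encodes a U2 splicing factor, and Commd1, which encodes a regulator of copper balance and NF-kB, were higher in B6D2F1N. Promoter sequence is shown for 3 of these 4 genes, since the levels of these genes differed between strains whose genomes differ. The sequences are RefSeq's for the reference genome, GRCm38.p6, which derives from C57BL/6J, and no DBA/2 sequence was used here. Each run holds the bases before the RefSeq start that lie outside annotated exons, 5′ to 3′ on the gene's strand, with CpG sites, the dinucleotides that carry DNA methylation, in capitals.
A330076H08Rik, chr7:61982360-61982605, minus strand: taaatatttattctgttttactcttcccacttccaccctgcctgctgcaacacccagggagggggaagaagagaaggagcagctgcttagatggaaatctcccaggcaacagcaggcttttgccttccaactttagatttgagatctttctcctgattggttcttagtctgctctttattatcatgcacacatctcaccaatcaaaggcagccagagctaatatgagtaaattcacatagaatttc
Zrsr1, chr11:22971755-22972004, plus strand: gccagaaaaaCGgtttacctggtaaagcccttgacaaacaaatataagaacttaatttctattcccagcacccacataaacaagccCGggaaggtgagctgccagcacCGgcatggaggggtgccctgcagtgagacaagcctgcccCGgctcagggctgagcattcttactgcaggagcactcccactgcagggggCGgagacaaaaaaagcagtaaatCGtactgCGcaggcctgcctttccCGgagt
Commd1, chr11:22982383-22982534, minus strand: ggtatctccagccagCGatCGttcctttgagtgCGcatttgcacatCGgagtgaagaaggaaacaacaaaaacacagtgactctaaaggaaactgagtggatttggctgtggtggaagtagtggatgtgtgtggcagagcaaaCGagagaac

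In the 250 bases before the RefSeq start, read on 1 strand since CG is its own reverse complement, A330076H08Rik had 0 CpG sites, Ndn 5, Zrsr1 8 and Commd1 14 at this start. Of 32851 such windows of all genes, 7.87% held no CpG site, and the median was 6. The 60 windows of the 38 imprinted genes found in the table had a median of 11.5 CpG sites, and 3 of them held none. These counts describe the reference sequence and say nothing of methylation in these mice.

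A330076H08Rik (ENSMUSG00000109321, chr7:61930137-61982358, minus strand, GRCm38) is a paternally expressed processed transcript. In the anterior portion its level in 6 C57BL/6J mice ran from 31.9 to 55.4 CPM with a median of 38.0, and in 10 B6D2F1N mice from 2.72 to 9.06 CPM with a median of 5.95. In the posterior portion the 8 C57BL/6J mice lay between 18.0 and 53.4 CPM (median 43.7) and the 11 B6D2F1N mice between 3.84 and 13.7 CPM (median 6.22). The strains did not overlap in either portion, and the lowest C57BL/6J libraries were the posterior ones of enriched mice 2 and 1, at 18.0 and 22.2 CPM. With housing as a term, the log2 fold change of B6D2F1N over C57BL/6J was -2.63 (SE 0.232, adjusted p = 2.80e-07) in the anterior and -2.44 (SE 0.232, adjusted p = 1.74e-07) in the posterior portion, from the quasi-likelihood test of edgeR, adjusted over all genes by the Benjamini-Hochberg method. Without B6D2F1N standard mouse 1 the values were -2.60 and -2.44. The difference passed the threshold, an adjusted p of at most 0.05, in each of the 4 combinations of housing and portion as well. There the log2 fold change was -2.34 (SE 0.229, adjusted p = 4.74e-05) in standard anterior, -2.71 (SE 0.345, adjusted p = 0.00135) in standard posterior and -2.17 (SE 0.286, adjusted p = 0.00110) in enriched posterior mice. In enriched anterior mice, with 2 C57BL/6J mice, it was -3.05 (SE 0.450, adjusted p = 0.0328) and passed in only 2 of 7 fits that left out 1 mouse. The gene also overlaps the miRNA gene Mir344g on its own strand, over 1.57% of its exon length.

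Ndn (ENSMUSG00000033585, chr7:62346569-62350262, plus strand) lies in the same cluster on chromosome 7 as A330076H08Rik, is likewise paternally expressed, and differed in the opposite direction. In the posterior portion the 8 C57BL/6J mice lay between 138 and 222 CPM (median 179) and the 11 B6D2F1N mice between 247 and 424 CPM (median 350), with no overlap. The means were 180 ± 25.9 CPM (SD, n = 8) and 344 ± 55.5 CPM (SD, n = 11). The posterior log2 fold change was 0.94 (SE 0.132, adjusted p = 8.28e-05 by edgeR), and 0.90 (adjusted p = 0.000284) without B6D2F1N standard mouse 1, whose 424 CPM was the highest value. In the anterior portion the 6 C57BL/6J mice lay between 137 and 219 CPM (median 200) and the 10 B6D2F1N mice between 194 and 392 CPM (median 280). The ranges met there, since B6D2F1N enriched mouse 1 was at 194 CPM, and the log2 fold change of 0.64 (SE 0.159) did not pass (adjusted p = 0.0870 by edgeR, 0.00591 by DESeq2). In enriched posterior mice alone the log2 fold change was 1.03 (SE 0.201, adjusted p = 0.0322 by edgeR), a call kept in only 1 of 10 fits that left out 1 mouse.

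Zrsr1 (ENSMUSG00000044068, chr11:22972005-22976496, plus strand) is a single-exon paternally expressed gene that lies inside the maternally expressed gene Commd1 (ENSMUSG00000051355, chr11:22896136-22982382, minus strand). In the anterior portion Zrsr1 ran from 17.3 to 26.9 CPM (median 23.0) in 6 C57BL/6J mice and from 28.5 to 56.3 CPM (median 42.4) in 10 B6D2F1N mice, without overlap. The posterior values were 19.6 to 40.2 CPM (median 28.4) in 8 C57BL/6J and 36.6 to 50.2 CPM (median 46.0) in 11 B6D2F1N mice. Only C57BL/6J enriched mouse 4, at 40.2 CPM, reached into the B6D2F1N range. The log2 fold change of Zrsr1 was 0.97 (SE 0.174, adjusted p = 0.00462) in the anterior and 0.68 (SE 0.137, adjusted p = 0.00730) in the posterior portion, by edgeR. Without B6D2F1N standard mouse 1 these were 0.99 (adjusted p = 0.00686) and 0.67 (adjusted p = 0.0175).

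Commd1 was between 14.6 and 22.1 CPM (median 18.7) in 8 posterior C57BL/6J libraries and between 25.0 and 34.6 CPM (median 30.7) in 11 posterior B6D2F1N libraries. These groups did not overlap, and the log2 fold change was 0.74 (SE 0.129, adjusted p = 0.00148 by edgeR). It stayed at 0.74 (adjusted p = 0.00296) without B6D2F1N standard mouse 1. The anterior libraries spanned 11.8 to 18.8 CPM (median 17.9) in 6 C57BL/6J and 18.8 to 29.5 CPM (median 25.0) in 10 B6D2F1N mice, with ranges that met at 18.8 CPM in B6D2F1N standard mouse 1, and the log2 fold change of 0.57 (SE 0.176) did not pass (adjusted p = 0.304 by edgeR, 0.0302 by DESeq2). Exons of Commd1 on the opposite strand cover 9.17% of the Zrsr1 exon. Whether the counting used strand is not given in the sources used here, so reads of these genes in the shared stretch cannot be told apart. Of the genes within 500 kb, only these 2 passed around either of them. Of 19 other genes tested within 500 kb of A330076H08Rik, 3 passed in the posterior portion: Ndn, the pseudogene Ube2nl and the miRNA gene Mir344c. Among all tested genes 0.858% passed there. The last 2 were lower in B6D2F1N mice, unlike Ndn. They were chosen after their values were seen, and were at or below means of 0.523 and 0.315 CPM in either strain.

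**Figure D2:**
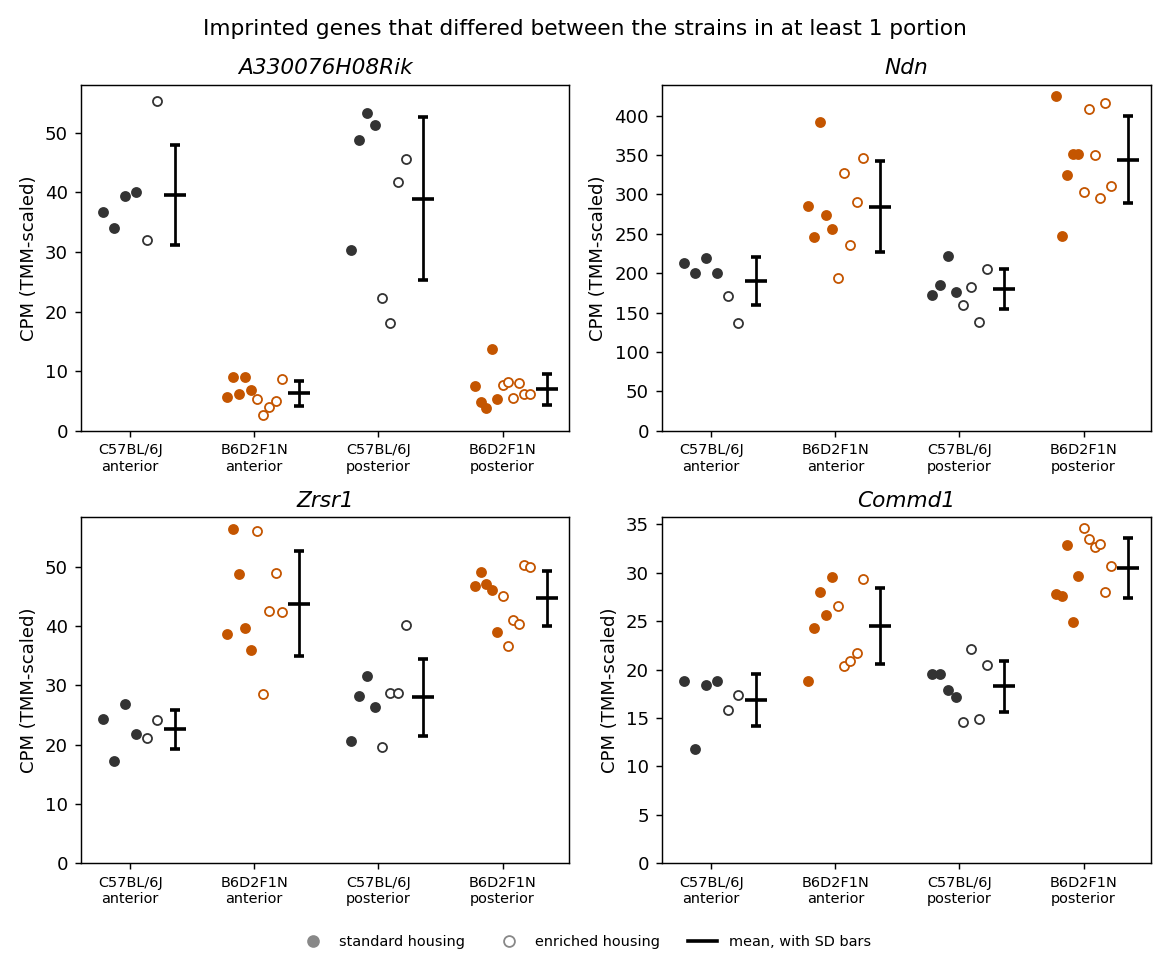
CPM of A330076H08Rik, Ndn, Zrsr1 and Commd1 in each library, by strain and portion; filled points are standard and open points enriched mice, and bars give the mean and SD of the strain in that portion. A330076H08Rik lies at 18.0 to 55.4 CPM in C57BL/6J and at 2.72 to 13.7 CPM in B6D2F1N libraries, while the other 3 genes lie higher in B6D2F1N.

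With both housings in the fit, 2 of 44 tested members passed in the anterior portion, A330076H08Rik and Zrsr1, where 0.615% of all tested genes passed. In the posterior portion 4 of 44 passed, against 0.858% of all tested genes. The strains did not overlap for 2 members in the anterior (0.691% of all tested genes) and for 3 members in the posterior portion (0.592%). Within single housings, 1 member passed in standard anterior (0.37% of all tested genes), 1 in standard posterior (0.373%), 1 in enriched anterior (0.0639%) and 2 in enriched posterior mice (0.394%). Since the alleles that the hybrid reads differ by parent of origin, the members were also read by class. In the posterior portion the median log2 fold change was 0.02 over 25 paternally expressed, 0.44 over 11 maternally expressed and -0.03 over 8 mixed members, against 0.02 over all tested genes. Positive values were given by 14 of the 25 paternal and 9 of the 11 maternal members. The anterior medians were 0.14, 0.15 and 0.04, against 0.00 over all tested genes, with 17 of 25 paternal and 8 of 11 maternal members positive. These anterior medians rested on 1 library, since without B6D2F1N standard mouse 3 they were 0.02 for the paternal, -0.05 for the maternal and -0.04 for the mixed members, with 13 of 25 paternal and 5 of 11 maternal members positive. The posterior maternal median ran from 0.37 to 0.51 when 1 mouse was left out. With no minimum count it was 0.73 over 13 members, where H19 (1 count in all) and Phlda2 (7 counts) were included. The highest posterior maternal values belonged to members of low mean level with wide SEs. These were Asb4 (1.43, SE 0.885, 1.62 CPM), Calcr (1.36, SE 0.950, 4.07 CPM), Kcnk9 (1.30, SE 1.46, 0.183 CPM) and Cdkn1c (0.95, SE 0.546, 2.66 CPM). The posterior paternal median reached 0.13 without C57BL/6J enriched mouse 4. Commd1 was the only maternal member that passed, and only in the posterior portion, so the class medians rest mostly on differences that did not pass.

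Among the maternally expressed members, Meg3, Rian and Mirg, the noncoding RNAs of the Dlk1-Dio3 cluster, had posterior log2 fold changes of 0.38 (SE 0.180, adjusted p = 0.447), 0.36 (SE 0.186, adjusted p = 0.500) and 0.44 (SE 0.164, adjusted p = 0.291 by edgeR). Their anterior values were 0.15, 0.23 and 0.25. These RNAs are thought to come from 1 long transcript of that cluster, so they are not independent of each other. The paternally expressed members of the same cluster went in both directions in the posterior portion. Dlk1, which encodes a Notch-like membrane protein, had a log2 fold change of -0.58 (SE 0.237, adjusted p = 0.334 by edgeR). Dio3 had -0.12 (SE 0.487, adjusted p = 0.974) and Rtl1 had 0.79 (SE 0.366, adjusted p = 0.423 by edgeR). Ube3a, which encodes a ubiquitin ligase and is maternally expressed in neurons, had 0.36 (SE 0.144, adjusted p = 0.327) in the posterior and 0.44 (SE 0.180, adjusted p = 0.565) in the anterior portion. Trappc9 was the maternal member with the lowest anterior value among those at more than 1 CPM, -0.62 (SE 0.182, adjusted p = 0.230 by edgeR, 0.0481 by DESeq2).

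**Figure D3:**
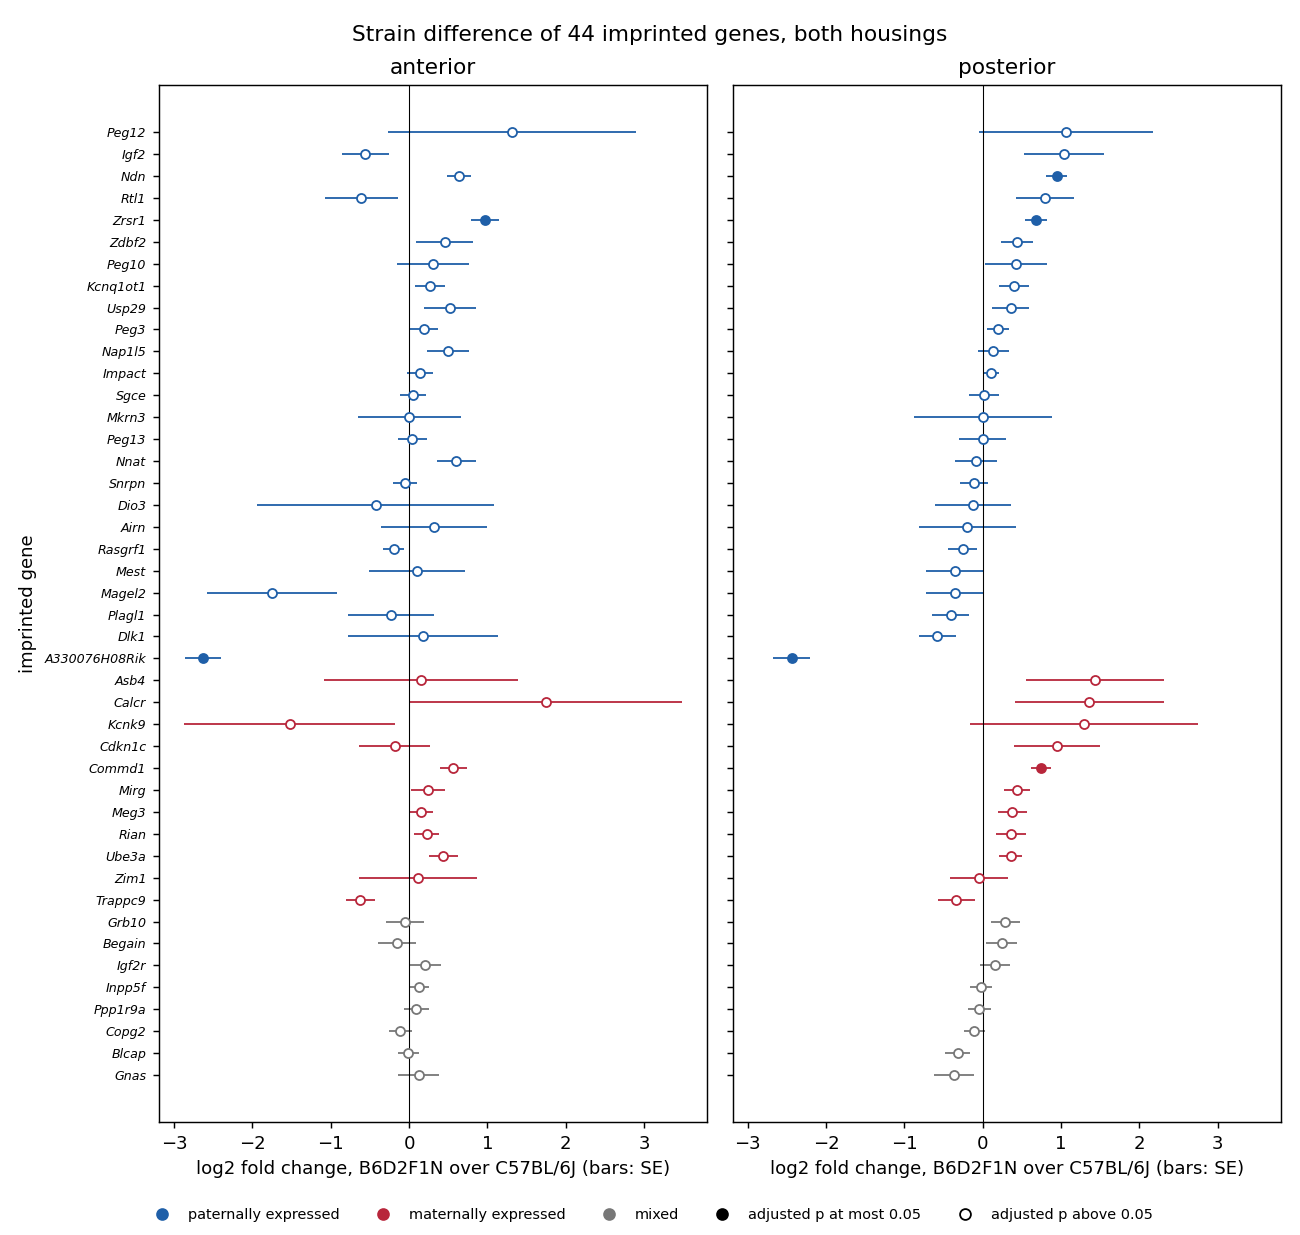
Log2 fold change of B6D2F1N over C57BL/6J with its SE for 44 imprinted genes in the anterior (left) and posterior (right) portion, both housings fitted together; filled points passed an adjusted p of 0.05. A330076H08Rik stands apart at -2.63 and -2.44, and most maternally expressed genes lie to the right of 0 in the posterior portion.

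Snrpn, the most abundant member per kilobase, did not pass between strains, with log2 fold changes of -0.05 (95% interval -0.35 to 0.24) in the anterior and -0.12 (95% interval -0.46 to 0.23) in the posterior portion. However, 21.3% of its 72-base windows also align to other genes with at most 2 mismatches, most of them to the pseudogene Gm5802. In C57BL/6J mice Gm5802 had 0.301 ± 0.291 CPM (SD, n = 6) in the anterior and 0.232 ± 0.139 CPM (SD, n = 8) in the posterior portion. The same pseudogene had 68.1 ± 10.7 CPM (SD, n = 10) and 48.8 ± 13.3 CPM (SD, n = 11) in B6D2F1N mice. Snrpn and Gm5802 together had 1140 ± 204 CPM against 1145 ± 183 CPM in the anterior portion, C57BL/6J first, and 862 ± 213 CPM against 841 ± 236 CPM in the posterior portion. The summed level thus differed less between strains than Snrpn alone, and by less than the spread between mice. The reads of all mice were aligned to the same C57BL/6J-derived reference, and the part of this in any strain difference was not tested.

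Of 45 other imprinted genes and 23 factors that set or keep imprints, those that passed between strains are named here. Among all tested genes 0.858% passed in the posterior portion over both housings and 0.394% in enriched posterior mice. Pon2, which encodes a paraoxonase and is imprinted in placenta, was lower in posterior B6D2F1N libraries, with 104 ± 18.4 CPM (SD, n = 11) against 190 ± 41.0 CPM (SD, n = 8) and a log2 fold change of -0.86 (SE 0.143, adjusted p = 0.000782 by edgeR). In enriched posterior mice Gatm, an enzyme gene of creatine synthesis, had a log2 fold change of -0.93 (adjusted p = 0.0334). Zfp57, a zinc-finger protein that binds methylated control regions, was higher there, with 95.3 ± 35.9 CPM (SD, n = 6) against 30.1 ± 11.6 CPM (SD, n = 4) and a log2 fold change of 1.67 (SE 0.325, adjusted p = 0.0316 by edgeR). In standard posterior mice Zfp57 had 92.1 ± 66.1 CPM (SD, n = 5) against 74.2 ± 5.36 CPM (SD, n = 4), and a test of the difference between housings did not pass (adjusted p = 0.542). In the posterior strain comparison 1 of the marker genes of 10 cell types passed, the choroid plexus gene Kl (log2 fold change 2.30, adjusted p = 0.0219). In enriched posterior mice oligodendrocyte markers were at lower values in B6D2F1N for 6 of 6 genes, with a median log2 fold change of -1.10. Of these genes 5 had an unadjusted p under 0.05 by edgeR, where 9.11% of all tested genes did, although none passed. Their sum ran from 6712 to 16006 CPM in B6D2F1N and from 17825 to 27905 CPM in C57BL/6J enriched posterior libraries, without overlap. The 6 choroid plexus genes had a median of 2.91 there. The part of the choroid plexus and oligodendrocyte signals in the posterior strain differences, those of Gatm and Zfp57 included, was not tested.

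The second comparison set the posterior against the anterior portion of the same mouse. In both strains Nnat, Dlk1, Dio3 and Zdbf2, which are all paternally expressed, were higher in posterior libraries. Blcap passed in C57BL/6J mice and Calcr in B6D2F1N mice, also as higher in the posterior portion. The study's stated levels of the 2 portions along the brain axis run opposite to their names, so only the labels' own portion names are used here. In bulk samples, more cells of a type and more RNA per cell cannot be told apart.

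Of the members that passed in both strains, only Nnat (ENSMUSG00000067786, chr2:157560078-157562522, plus strand) rose in every mouse. In 6 C57BL/6J mice with both portions it ran from 97.8 to 197 CPM in anterior libraries, against 308 to 1312 CPM in posterior ones. The 10 B6D2F1N mice had 118 to 383 CPM in anterior libraries, against 215 to 1099 CPM in posterior ones. Every mouse of both strains was higher in its posterior library, though by unlike amounts. B6D2F1N enriched mouse 4 went from 157 to 215 CPM, and C57BL/6J enriched mouse 3 from 97.8 to 1312 CPM. With the mouse as a block, the log2 fold change was 2.36 (SE 0.246, adjusted p = 1.29e-05) in C57BL/6J and 1.55 (SE 0.208, adjusted p = 0.000241) in B6D2F1N mice by edgeR. The difference between the strains, -0.82 (SE 0.344), did not pass (adjusted p = 1).

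Blcap (ENSMUSG00000067787, chr2:157556362-157571274, minus strand), whose gene contains Nnat within it on the other strand, is mixed in its expression. It was at 157 to 253 CPM in anterior libraries, against 262 to 410 CPM in posterior ones for the 6 C57BL/6J mice, without overlap and higher in 6 of 6 mice (log2 fold change 0.67, SE 0.137, adjusted p = 0.00704 by edgeR). In the 10 B6D2F1N mice the log2 fold change was 0.22 (SE 0.141, adjusted p = 0.484), and the difference between the strains was not past the threshold (adjusted p = 1).

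Zdbf2 (ENSMUSG00000027520, chr1:63273265-63314576, plus strand), a zinc-finger gene with a part in early feeding and growth, ran from 6.62 to 18.1 CPM in anterior and from 22.7 to 46.0 CPM in posterior libraries of the 6 C57BL/6J mice. In B6D2F1N mice the anterior libraries were at 5.21 to 46.8 CPM and the posterior ones at 24.8 to 74.9 CPM. The value of 46.8 CPM belonged to standard mouse 3, the only mouse whose anterior library was the higher one. The log2 fold change was 1.31 (SE 0.250, adjusted p = 0.00408, 6 of 6 mice) in C57BL/6J and 1.41 (SE 0.251, adjusted p = 0.00261, 9 of 10 mice) in B6D2F1N mice by edgeR.

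Dlk1 (ENSMUSG00000040856, chr12:109452823-109463336, plus strand) and Dio3 (ENSMUSG00000075707, chr12:110279068-110281097, plus strand) are paternally expressed genes at the 2 ends of 1 cluster. Dlk1 had 1.10 to 23.8 CPM in anterior and 17.3 to 103 CPM in posterior libraries of the C57BL/6J mice, and was higher in the posterior portion of 5 of 6 mice, the exception being enriched mouse 1. The B6D2F1N mice had 0 to 63.5 CPM in anterior libraries, against 24.4 to 48.4 CPM in posterior ones, again with standard mouse 3 as the exception. The log2 fold change of Dlk1 was 2.97 (SE 0.598, adjusted p = 0.00638) in C57BL/6J and 3.31 (SE 0.633, adjusted p = 0.00449) in B6D2F1N mice by edgeR with the mouse as a block, and 1.77 in B6D2F1N (adjusted p = 0.112) without the block.

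Dio3 was at or near 0 in the anterior portion. In C57BL/6J mice 3 of the anterior libraries had 0 CPM and the others 0.301, 0.880 and 2.58 CPM, whereas the posterior libraries had 10.4 to 25.5 CPM, with no overlap. The B6D2F1N mice had 0 to 2.83 CPM in anterior libraries, against 0.218 to 36.6 CPM in posterior ones, with all but standard mouse 2 higher in the posterior library. The fitted log2 fold changes were 5.73 (SE 0.736, adjusted p = 0.000124, 6 of 6 mice) and 5.86 (SE 1.10, adjusted p = 0.00406, 9 of 10 mice) by edgeR. A fitted fold against libraries at 0 is no bound, and it ran from 4.69 to 7.08 in C57BL/6J and from 4.78 to 7.84 in B6D2F1N mice over 5 other settings. The maternally expressed RNAs between these genes moved less, with log2 fold changes in B6D2F1N of 0.37 for Meg3 (adjusted p = 0.170), 0.44 for Rian (adjusted p = 0.149) and 0.52 for Mirg (adjusted p = 0.137).

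Calcr (ENSMUSG00000023964, chr6:3685680-3764714, minus strand), a maternally expressed gene of the Peg10 cluster, was at 0 in most anterior B6D2F1N libraries. In these mice 7 anterior libraries had 0 CPM and the others 0.456, 2.41 and 4.39 CPM, and the posterior libraries of the same mice ran from 0 to 38.8 CPM. The log2 fold change was 5.45 (SE 1.35, adjusted p = 0.0274 by edgeR, 9 of 10 mice). It did not pass without B6D2F1N standard mouse 1 (4.88, adjusted p = 0.0741), in 6 of 10 fits that left out 1 mouse, without the mouse block (3.40, adjusted p = 0.0753) or by DESeq2 (adjusted p = 0.0682). In C57BL/6J mice the anterior libraries reached 0.795 CPM and the posterior ones of the paired mice 2.88 CPM, and the difference did not pass (log2 fold change 3.40, SE 2.29, adjusted p = 0.606).

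**Figure D4:**
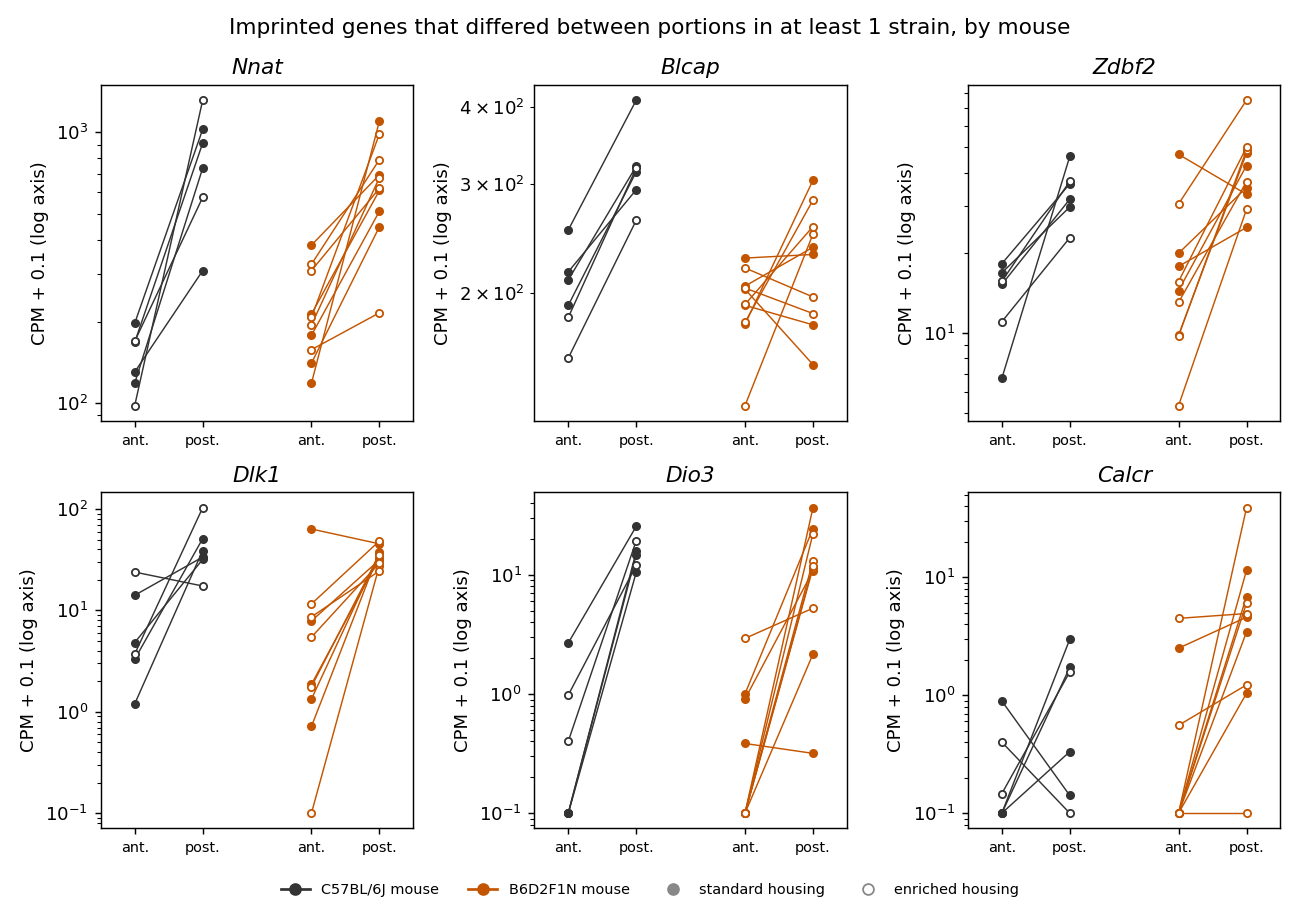
CPM plus 0.1, on a log axis, of 6 imprinted genes in the anterior and posterior library of each mouse with both portions, 1 line per mouse; filled points are standard and open points enriched mice. Nnat rises in all 16 mice, Blcap in the 6 C57BL/6J mice, and Dio3 starts at or near 0 in the anterior portion.

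In each strain 5 of 44 tested members passed between portions, all higher in posterior libraries. Among all tested genes 3.64% passed in C57BL/6J (1.54% as higher) and 4% in B6D2F1N mice (1.62% as higher). The median log2 fold change of the members was 0.18 in C57BL/6J and 0.36 in B6D2F1N mice, against 0.01 and 0.15 over all tested genes. The 4 genes that differed between strains were not called between portions, with log2 fold changes from -0.11 (Ndn, C57BL/6J) to 0.34 (Commd1, B6D2F1N). Without B6D2F1N standard mouse 1, Nnat (1.39, adjusted p = 0.000232), Zdbf2 (1.33, adjusted p = 0.00829), Dlk1 (3.53, adjusted p = 0.00824) and Dio3 (5.45, adjusted p = 0.0124) still passed in B6D2F1N mice by edgeR.

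Markers of several cell types moved with the portion. In the posterior portion 4 of 6 choroid plexus genes in C57BL/6J and 6 of 6 in B6D2F1N mice were called higher, as were 2 and 4 of 6 ependymal cell genes and 1 of 6 meningeal fibroblast genes in each strain. The meningeal gene was Dcn, itself on the list of other imprinted genes, with a mean of 23.8 CPM in anterior libraries, against 1056 CPM in posterior ones for C57BL/6J, and of 28.3 and 499 CPM in B6D2F1N. The other 5 meningeal genes did not pass and had means of at most 13.6 CPM in any strain and portion. Of 6 excitatory neuron genes 2 were lower and 1 higher in posterior libraries of each strain, with median log2 fold changes of -0.43 in C57BL/6J and -1.02 in B6D2F1N. Inhibitory neuron genes were lower for 2 of 6 in C57BL/6J and 1 of 6 in B6D2F1N, and 1 of 6 striatal projection neuron genes was lower in C57BL/6J. Of 6 astrocyte genes 3 were higher in C57BL/6J, and 1 was higher and 1 lower in B6D2F1N. The part of these cells in the portion differences of the imprinted genes was not tested. B6D2F1N enriched mouse 1 had 934 CPM of choroid plexus markers in its anterior library, where the others had at most 54.6 CPM. Its Nnat, Zdbf2 and Dio3 levels there were 194, 9.62 and 0 CPM, within the range of the other anterior libraries of that strain.

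Igf2, a growth factor gene also active in choroid plexus and meninges, was not called between portions but had 2 high libraries. It is classed here with the paternally expressed members, but which parental copy was read in these libraries was not measured. B6D2F1N enriched mice 1 and 3 had 134 and 242 CPM in the posterior portion, and the other 33 libraries had 4.42 to 44.1 CPM. The same 2 libraries had the highest choroid plexus sums of all, 13829 and 14266 CPM. The posterior against anterior log2 fold change of Igf2 in B6D2F1N mice was 1.29 (SE 0.441, adjusted p = 0.128). The next highest sum, 4512 CPM in the posterior library of B6D2F1N standard mouse 4, stood beside 31.8 CPM of Igf2. The 2 libraries with the highest sums had 1.12 and 0 CPM of Calcr. Whether either gene goes with this sum was not tested.

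**Figure D5:**
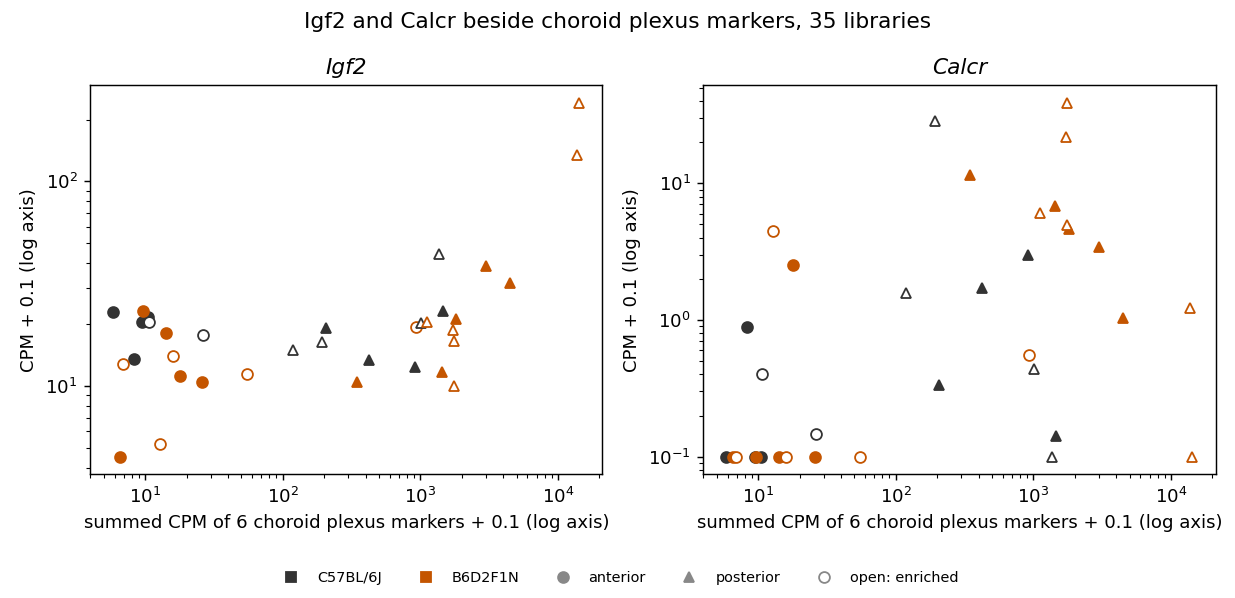
CPM of Igf2 (left) and Calcr (right) against the summed CPM of 6 choroid plexus marker genes in 35 libraries, each plus 0.1 and on log axes; circles are anterior and triangles posterior, filled standard and open enriched. The 2 libraries with the highest marker sums have the highest Igf2, at 134 and 242 CPM, and 1.12 and 0 CPM of Calcr.

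Other imprinted genes also differed between portions. Dcn, a matrix gene that is also one of the meningeal markers, had log2 fold changes of 5.80 (adjusted p = 9.45e-09) in C57BL/6J and 2.97 (adjusted p = 0.0145) in B6D2F1N mice. Zfp57 was higher in posterior libraries, by 2.20 (adjusted p = 0.00768) and 1.61 (adjusted p = 0.00110) on the log2 scale. Adam23 was lower in the posterior library of every mouse (-0.79 and -0.52, adjusted p = 0.00747 and 0.0167 by edgeR). In all, 3 of 41 other imprinted genes tested passed in C57BL/6J and 5 of 43 in B6D2F1N mice, where 3.64% and 4% of all tested genes did, and of 22 imprint factors tested only Zfp57 passed.

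The third comparison asked whether the playground changed these genes. No member passed between enriched and standard mice in any strain and portion by edgeR. In C57BL/6J anterior libraries, with 2 enriched mice, 0% of all genes passed and 6 of 44 members had an unadjusted p under 0.05 (6.2% of all genes). In C57BL/6J posterior libraries 0.0163% passed and 4 members were under 0.05 (10.3% of all genes). In B6D2F1N mice 0% passed in both portions, and 1 anterior and 2 posterior members were under 0.05 (6.3% and 6.59% of all genes). DESeq2 called 1 member, in C57BL/6J anterior libraries, and none in the other 3.

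That member was Mest, a paternally expressed gene of a hydrolase-like enzyme. Its 2 enriched C57BL/6J anterior libraries had 13.0 CPM each, below the 20.8, 114, 73.8 and 38.0 CPM of the 4 standard mice, and the log2 fold change was -2.26 (SE 0.551, adjusted p = 0.544 by edgeR). DESeq2 gave -2.27 (adjusted p = 0.00542). In the posterior portion the enriched C57BL/6J mice had 17.6, 9.71, 76.7 and 14.9 CPM and the standard mice 56.3, 55.3, 64.5 and 66.0 CPM (log2 fold change -1.05, SE 0.477, adjusted p = 0.480 by edgeR). All enriched mice but mouse 3 were below the standard range, and without that mouse the log2 fold change was -2.09 (adjusted p = 0.00324 by edgeR). That fit is singled out here after its values were seen, and it leaves out the mouse that went against the difference. In B6D2F1N mice Mest ranged from 10.3 to 118 CPM in the anterior portion, and the lowest and the highest value both came from enriched mice. The posterior B6D2F1N libraries overlapped, at 12.7 to 59.4 CPM in standard and 14.5 to 61.2 CPM in enriched mice.

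The differences between strains were also compared between housings and the differences between portions between strains. No member passed, nor did any gene among all tested (0% in each of these 3 comparisons), and 3, 4 and 4 members had an unadjusted p under 0.05 for strain by housing in the anterior portion, strain by housing in the posterior portion and portion by strain, where 5.98%, 8.38% and 2.96% of all genes did. DESeq2 called 0 members in these 3 comparisons, and 11, 37 and 0 genes. For A330076H08Rik the strain difference changed with housing by -0.72 (SE 0.467, adjusted p = 0.965) in the anterior and by 0.53 (SE 0.453, adjusted p = 0.836) in the posterior portion.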

How the data were processed

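RNA of laser-captured basolateral amygdala cells was sequenced in single-end reads, 72 bases long. The authors demultiplexed them with bcl2fastq2, trimmed with Trimmomatic 0.38, aligned to GRCm38 with HISAT2 2.1.0, sorted with SAMtools 1.8 and counted with HTSeq 0.11.2. The deposited values are unnormalized, unfiltered read counts per gene, with 1 file per library. The annotation release and the strand setting of HTSeq are not given in the sources used here. Reads that HTSeq assigned to no gene were left out of library sizes. As shares of all reads tallied, assigned or not, these were no feature 13.7 to 26.4%, ambiguous 3.06 to 3.74% and not unique 6.23 to 10.9%.

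Symbols and positions came from GENCODE M21, which held 52489 of 52636 gene identifiers. In R 4.3.3 with edgeR 4.0.16, genes whose counts summed to 10 or more in the libraries compared were kept, scaled by TMM and tested with the quasi-likelihood F test, with Benjamini-Hochberg adjustment over all genes and an adjusted p of at most 0.05 as the threshold. Strains and housings were compared within the other factor and portion, strains also with both housings and a housing term, and portions within mice with the mouse as a block. Depths of 16938534 to 27352623 counts leave up to 3 counts possible for a gene at 0, which covers counting error only. The mouse identifiers in the labels pair the portions. Deviations from group means of 2 libraries of 1 mouse correlated across 16022 genes with a median r of 0.07 (16 mice), against -0.02 for different mice, a correlation across genes, which are not independent. No 2 libraries were identical. Shared windows were found with bwa 0.7.19. Alternatives were DESeq2 1.42.0, its size factors in edgeR, edgeR's filterByExpr or no minimum count, 1 fit of the 4 groups of a portion, no mouse block, and each mouse left out. The edgeR step was tested on simulated counts.

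The members, lists and tests were chosen with earlier results of these data known. Every member that passed was named, as were the 10 highest members per kilobase, those with at most 10 counts, and listed genes that passed between strains or were among the 4 smallest p-values between portions.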

Additional observations from a re-analysis of the deposited data

Results flagged for a closer look

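For the 10 members that passed in any comparison, each group of at least 4 mice was searched for a library far from the rest of its group by Dixon's ratio at 95%. Of 70 groups 11 were flagged. The chance rate of about 1 in 20 holds for normally distributed values, which these CPM need not be. Where all other libraries of a group are at 0, a single library with counts is always flagged. The number flagged is therefore not read against that rate. B6D2F1N standard mouse 3 stood above its group's other anterior libraries in 4 genes, with 392.2 CPM of Ndn (next 285 CPM), 63.48 CPM of Dlk1 (next 7.77 CPM), 46.8 CPM of Zdbf2 (next 19.8 CPM) and 2.405 CPM of Calcr (the others at 0). B6D2F1N enriched mouse 6 stood apart in its anterior library with 2.834 CPM of Dio3 (the others at 0) and 4.386 CPM of Calcr (next 0.456 CPM). Among anterior C57BL/6J standard mice, mouse 2 was low in Commd1, at 11.84 CPM (next 18.4 CPM), and high in Dio3, at 2.581 CPM (the others at 0), and mouse 1 had 0.7947 CPM of Calcr (the others at 0). Among posterior C57BL/6J enriched mice, mouse 3 had 1312 CPM of Nnat (next 574 CPM), and mouse 4 had 28.23 CPM of Calcr (next 1.48 CPM).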

How the results depend on the processing

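The number of members called by edgeR was set against each alternative. No member that edgeR called changed direction in the comparison where it was called, and members not called were not checked for this. DESeq2 called 2 members in place of 1 in standard anterior, 4 in place of 1 in standard posterior and 2 in place of 1 in enriched anterior strain comparisons, 5 in place of 2 for strain in the anterior portion over both housings, 8 in place of 5 between portions in B6D2F1N mice, and 1 in place of 0 for housing in C57BL/6J anterior libraries. With no minimum count, 2 members were called for strain in enriched anterior mice and 1 for housing in C57BL/6J anterior libraries. With 1 fit for the 4 groups, 2 were called for strain in standard posterior mice. Leaving out 1 mouse at a time gave 0 to 1 members for strain in enriched anterior, 1 to 2 in enriched posterior mice, 0 to 1 for housing in C57BL/6J posterior libraries (1, Mest, without enriched mouse 3) and 4 to 9 between portions in B6D2F1N mice (9 without standard mouse 3). Without the mouse block, 5 members passed between portions in C57BL/6J and 4 in B6D2F1N mice, where Dlk1 and Calcr were lost. The cause of these changes was not tested. Leaving out a mouse in the tests of a difference between differences was not run, and where it left 1 enriched C57BL/6J anterior mouse, that mouse was assumed to vary like the others. At these depths Calcr and Dio3 had libraries at 0, and their fitted folds are no bounds.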
